A study of Mus musculus with 12 samples.

Results

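A set of 9 genes of the plasminogen and coagulation systems was followed across 12 microarrays of mouse lung epithelial cells lacking G protein alpha subunits. They are the plasminogen activators Plau (urokinase) and Plat (tissue-type activator), the urokinase receptor Plaur, the activator inhibitor Serpinb2, tissue factor F3, the anticoagulants Tfpi, Thbd and Proz, and kininogen Kng1. All probe sets whose annotation names one of the 9 genes and no other gene were taken, which gave 16 of the 45037 probe sets that are not array controls. No probe set named one of these genes together with another gene. Plau, Plat, Proz and Kng1 had 2 probe sets each, Tfpi had 4, and the remaining 4 genes had 1 each.

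Type II alveolar epithelial cells, the surfactant-making cells of the lung alveolus, were isolated from knockout mice and grown untreated for 7 days on collagen in a bronchial epithelial medium that contained keratinocyte growth factor at 10 μg/ml and no hydrocortisone. The 4 genotypes, with 3 arrays each, were a Gnaq/Gna11 double knockout, a Gna11 single knockout, a Gna12/Gna13 double knockout and a Gna12 single knockout. All 12 arrays therefore lacked Gna11 or Gna12, there was no wild-type group, and the added loss was Gnaq in the first pair and Gna13 in the second. The labels give no age, strain or sex and do not say how or in which cells the genes were deleted, nor whether replicate arrays of a genotype represent different animals or cultures, so the p-values measure only the spread between these samples. Gnaq and Gna11 encode the Gq/11 subunits, which couple receptors, the thrombin receptors among them, to phospholipase C, and Gna12 and Gna13 encode the G12/13 subunits, which couple them to RhoA.

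Plasminogen is cleaved to plasmin, the protease that dissolves fibrin, by Plau and Plat. Plaur holds Plau at the cell surface, and Serpinb2 inhibits both activators. Coagulation starts when tissue factor, the product of F3, meets factor VII, and ends when thrombin turns the fibrinogen chains into fibrin. Tfpi blocks the tissue factor complex, and Thbd (thrombomodulin) turns thrombin towards activation of protein C. Protein Z, the product of Proz, is the cofactor with which Serpina10 inhibits activated factor X. Kininogen, the product of Kng1, releases bradykinin and carries plasma kallikrein in the contact pathway. Most of these plasma proteins are made mainly by the liver, while alveolar epithelium is a known source of tissue factor and urokinase.

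For each target, 1 probe set was lower in every array labelled as lacking the gene than in every other array: 1 of 7 for Gnaq, 1 of 2 for Gna11, 1 of 5 for Gna12 and 1 of 7 for Gna13. The other probe sets of these genes overlapped, and where they lie relative to the deleted part was not known here. Sftpc, the defining type II marker, was between 12.8 and 13.4 in all 12 arrays. The brightest type I marker, Ager, lay between 13.2 and 13.5, and the brightest pan-leukocyte gene, Tyrobp, between 12.6 and 13.0. These levels therefore do not show that only type II cells were present. The mean of 9 type II markers was 11.85 to 11.95 in the Gnaq/Gna11 arrays and 11.63 to 11.75 in the Gna11 arrays, and lower in the arrays lacking Gna12 (10.91 to 11.32 in Gna12/Gna13 and 10.96 to 11.46 in Gna12). The values are log2 intensities normalised with RMA, their array medians lay between 5.03 and 5.11, and the number of arrays limits the precision. Replicate 2 of the Gna11 group stood apart from the other 11 arrays, with the lowest macrophage and type I alveolar marker means of the 12. The position code in the labels splits exactly by genotype, with 1 set of letters for double and another for single knockouts, so any effect of position and genotype cannot be told apart.

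Of the 9 genes, Kng1 and Proz rose in Gnaq/Gna11 knockout cells against Gna11 knockout cells, and none fell. Kng1 was 5.82-fold and Proz 3.47-fold higher. Across all 18193 genes, each represented by its brightest probe set, 1.84% passed in this comparison (limma, adjusted p below 0.05) and 1.17% passed as higher. The median difference of the 9 genes was 0.07 on the log2 scale, against -0.03 for all genes. In the Gna12/Gna13 knockout against the Gna12 knockout none of the 9 genes passed, with or without adjustment for multiple testing. Across all genes 0% passed there in limma, and 4.51% had an unadjusted p below 0.05.

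**Figure D1:**
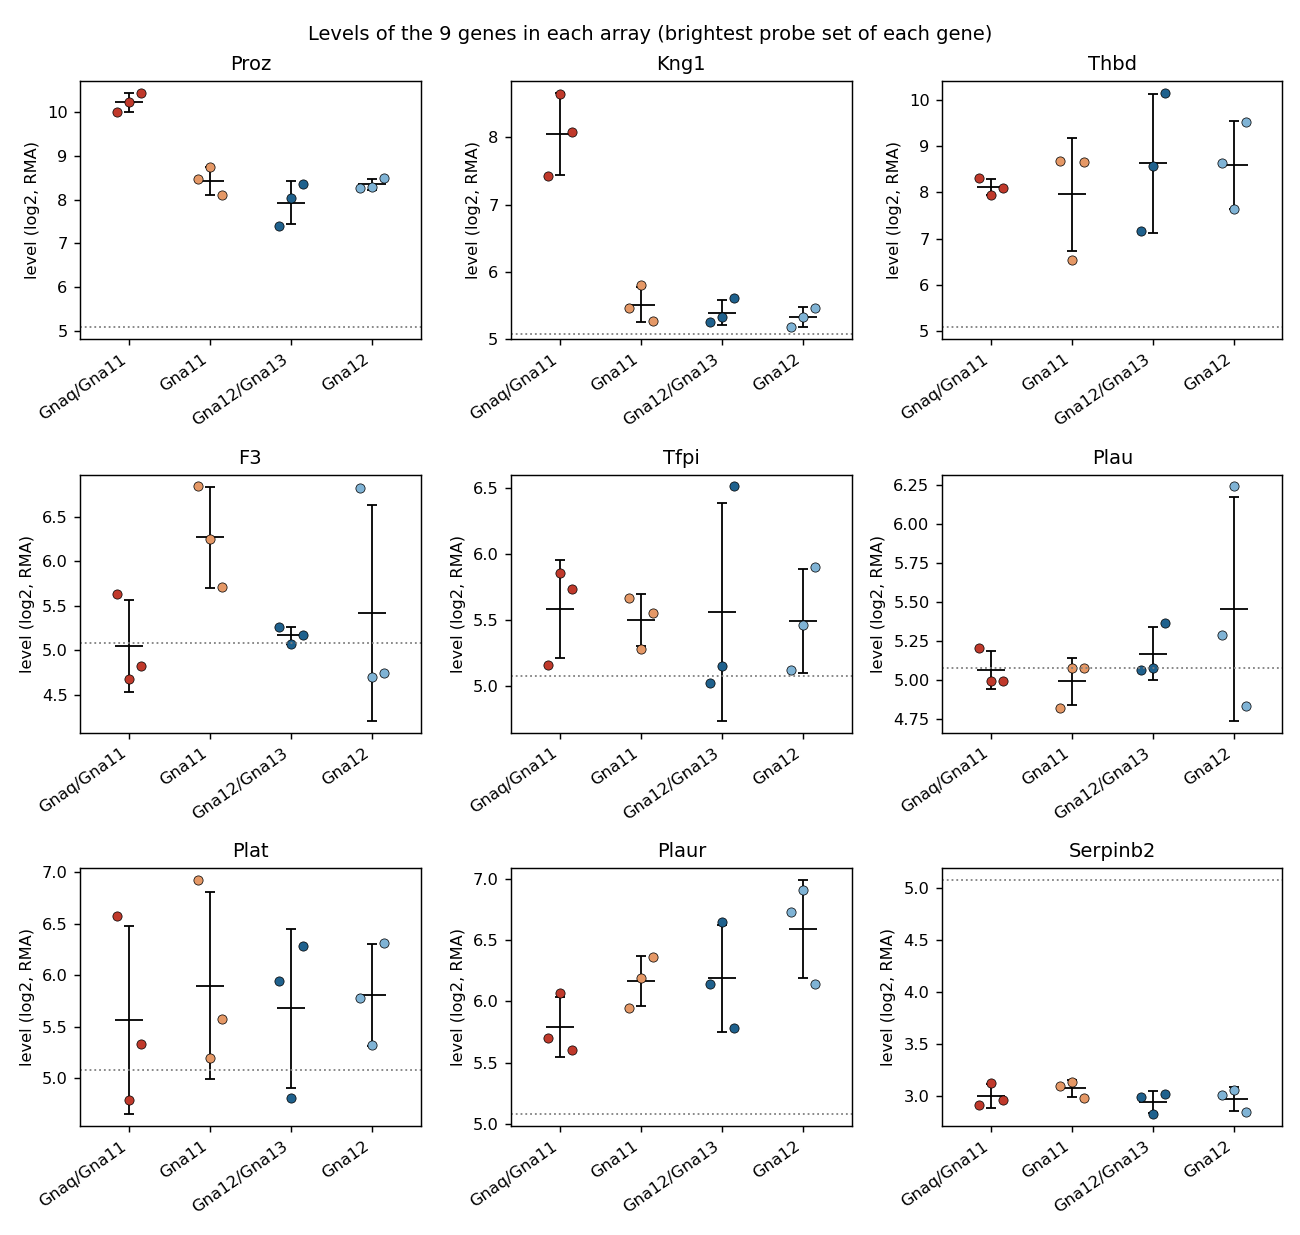
Level of each of the 9 genes in each array (log2, RMA), read from the brightest probe set of the gene. Points are arrays, bars are the mean ± SD of 3 arrays, and the dotted line is the median of all probe sets (5.08). The Gnaq/Gna11 arrays of Kng1 (7.43 to 8.65) and of Proz (10.0 to 10.4) lie above all the other arrays, and Serpinb2 stays near 3 throughout.

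Kng1 was measured by the probe sets 1416676_at and 1426045_at. At the brighter probe set, 1416676_at, its level was 7.43, 8.65 and 8.08 in the Gnaq/Gna11 arrays, against 5.46, 5.80 and 5.27 in the Gna11 arrays. It was 5.25, 5.32 and 5.61 in the Gna12/Gna13 arrays, against 5.17, 5.33 and 5.47 in the Gna12 arrays. The 3 Gnaq/Gna11 arrays stood above the other 9, which lay close to the array median and overlapped one another. The means were 8.05 ± 0.61 in Gnaq/Gna11, 5.51 ± 0.27 in Gna11, 5.39 ± 0.19 in Gna12/Gna13 and 5.32 ± 0.15 in Gna12 (SD, n = 3 each). Of the last 3 groups, Gna12/Gna13 against Gna11 was not tested. Against Gna11 the difference was 2.54 on the log2 scale (SE 0.27, 95% interval 1.94 to 3.14, limma adjusted p = 0.00209), which ranked 45 from the highest among all genes. In bulk RNA, a change in the share of cells that make a transcript and a change in the amount per cell cannot be told apart.

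The dimmer Kng1 probe set, 1426045_at, read 4.12, 3.78 and 3.68 in the Gnaq/Gna11 arrays, against 3.39, 3.43 and 3.29 in the Gna11 arrays. These groups did not overlap either, but all 6 values lay under the array median. The difference of 0.49 (SE 0.11) did not pass when every probe set was tested (limma adjusted p = 0.0854). Kng2, a close copy of Kng1 that lies beside it in the genome, was not analysed here, and whether the Kng1 probe sets also read it was not tested. In RefSeq's gene order the fetuin gene Ahsg and the plasma glycoprotein gene Hrg lie in the same cluster as Kng1. Ahsg averaged 5.11 in Gnaq/Gna11 and 5.28 in Gna11, and Hrg 4.08 in Gnaq/Gna11 and 4.10 in Gna11; neither passed.

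**Figure D2:**
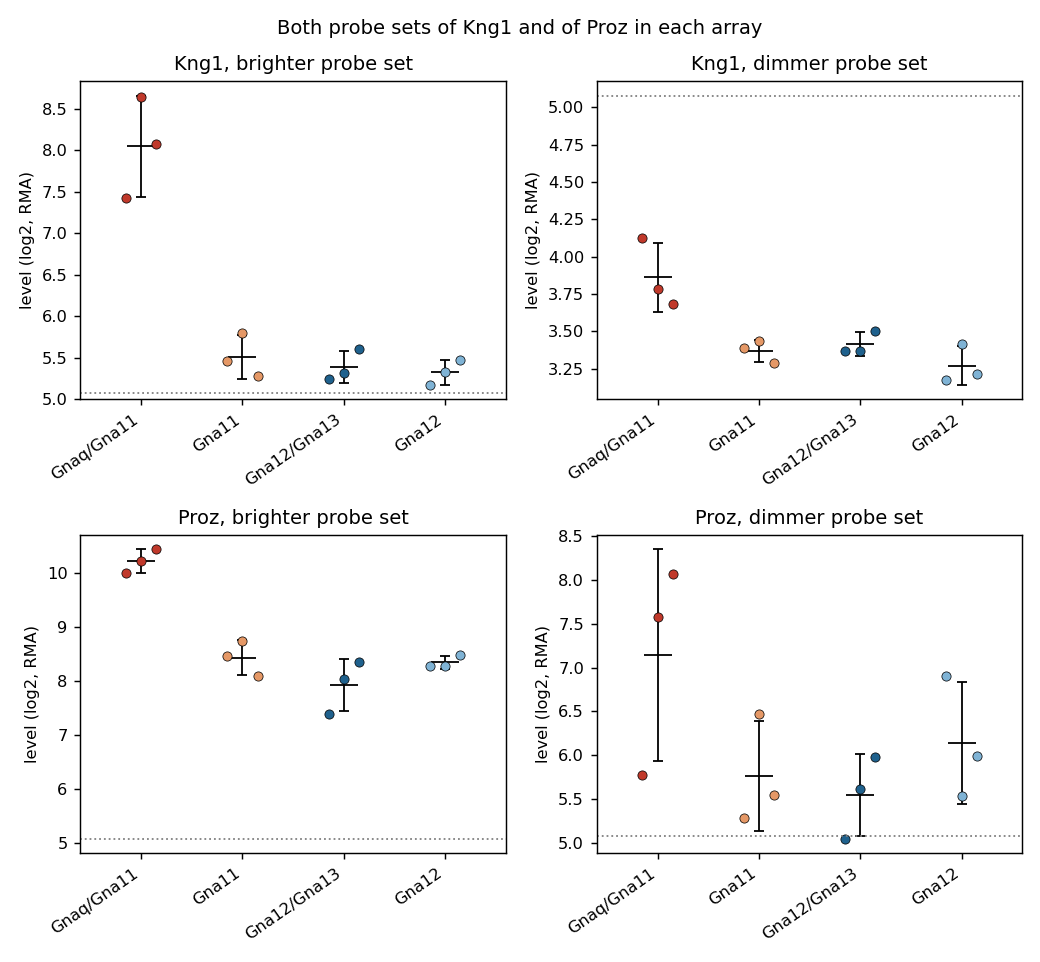
Level of both probe sets of Kng1 and of Proz in each array (log2, RMA), with mean ± SD of 3 arrays and the median of all probe sets as a dotted line. The brighter probe sets separate the Gnaq/Gna11 arrays from the rest, the dimmer Kng1 probe set does so below the median line (3.68 to 4.12 in Gnaq/Gna11), and the dimmer Proz probe set overlaps between groups.

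Proz was read by the probe sets 1450201_at and 1431721_a_at. The promoter of Proz is shown with those of the fibrinogen genes Fgg and Fga because all 3 genes rose in the same comparison. Each runs from 250 bases before to 50 bases after a transcript start listed for the gene on GRCm38.p6. All are given 5′ to 3′ on the plus strand (Proz at chr8:13060658-13060957, Fgg at chr3:83007474-83007773, Fga at chr3:83025903-83026202). The Proz gene itself begins at chr8:13060584 in RefSeq, so the Proz window lies inside the gene, after that first base. Capitals mark the searched motifs that were found.
Proz promoter: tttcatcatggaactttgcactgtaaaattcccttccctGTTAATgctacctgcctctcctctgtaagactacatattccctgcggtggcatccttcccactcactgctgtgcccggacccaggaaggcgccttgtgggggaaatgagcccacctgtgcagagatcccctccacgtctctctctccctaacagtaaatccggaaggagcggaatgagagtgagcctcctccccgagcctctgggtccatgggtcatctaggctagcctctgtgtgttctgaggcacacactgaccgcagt
Fgg promoter: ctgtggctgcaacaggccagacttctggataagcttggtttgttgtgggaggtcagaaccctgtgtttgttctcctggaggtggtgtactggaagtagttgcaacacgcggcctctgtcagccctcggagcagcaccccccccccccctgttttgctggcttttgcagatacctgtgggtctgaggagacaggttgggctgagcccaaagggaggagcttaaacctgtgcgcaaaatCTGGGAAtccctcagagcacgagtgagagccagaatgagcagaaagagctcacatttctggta
Fga promoter: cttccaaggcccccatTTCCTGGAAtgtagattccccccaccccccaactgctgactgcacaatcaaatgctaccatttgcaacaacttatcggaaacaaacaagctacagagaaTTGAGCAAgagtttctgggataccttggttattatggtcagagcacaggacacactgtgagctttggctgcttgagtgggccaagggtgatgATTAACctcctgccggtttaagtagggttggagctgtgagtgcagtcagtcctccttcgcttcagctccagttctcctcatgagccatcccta

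The motifs searched on both strands were CTGGGAA (the core of an interleukin-6 response element), TTCNNNGAA (STAT), TTNNGNAA (C/EBP), GTTAAT (part of the HNF1 site), CAAAGTCCA (HNF4), TGANTCA (AP-1) and TATAAA (a core promoter element). Proz held GTTAAT, at -211 from its listed transcript start, which 7.1% of 32851 RefSeq mouse promoters of this length also held. Fgg held CTGGGAA, at -13, found in 11.1% of promoters. Fga held a STAT match at -234, a C/EBP match at -135 and GTTAAT on the opposite strand at -43. The first of these was found in 8.3% and the second in 40.7% of promoters. None of the printed matches overlapped another. Fgb, whose level did not pass in this comparison, also held CTGGGAA, at -91, and GTTAAT on the opposite strand. It held a STAT match at -162, an AP-1 match at -173 and C/EBP matches at -206, -80 and -7 as well. Every motif found in the promoters shown was therefore also found in Fgb. No motif was thus found in all 3 promoters shown, and a match is a description of the letters and not of binding. Kng1 and Serpina10, which also passed as higher in this comparison, had no matched promoter and were not searched. Of the members that did not pass, Plaur, Serpinb2, F3 and Tfpi were searched as well. Tfpi held CTGGGAA and TATAAA, and Serpinb2 held STAT, C/EBP, AP-1 and TATAAA matches. Plaur held C/EBP and AP-1 matches, F3 held AP-1 and TATAAA matches, and none of these genes held GTTAAT.

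At its brighter probe set Proz read 10.01, 10.24 and 10.44 in the Gnaq/Gna11 arrays, against 8.47, 8.74 and 8.10 in the Gna11 arrays. It read 7.399, 8.05 and 8.35 in the Gna12/Gna13 arrays, against 8.28, 8.28 and 8.49 in the Gna12 arrays. As for Kng1, the 3 Gnaq/Gna11 arrays were above the other 9, although Proz was well above the array median in every group. The means were 10.2 ± 0.22 in Gnaq/Gna11, 8.44 ± 0.32 in Gna11, 7.93 ± 0.49 in Gna12/Gna13 and 8.35 ± 0.12 in Gna12 (SD, n = 3 each). Against Gna11 the difference was 1.79 (SE 0.25, 95% interval 1.23 to 2.35, limma adjusted p = 0.00837), which ranked 128 from the highest. The ranges of the 3 groups other than Gnaq/Gna11 overlapped one another, and Gna12/Gna13 against Gna11 was not tested.

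The dimmer Proz probe set read 5.77, 7.58 and 8.08 in the Gnaq/Gna11 arrays, against 5.28, 6.47 and 5.54 in the Gna11 arrays. Replicate 1 of Gnaq/Gna11 fell inside the range of Gna11, and the difference of 1.38 (SE 0.57) did not pass (limma adjusted p = 0.321). Averaging both probe sets of the gene gave 1.59 and took Proz out of the calls (adjusted p = 0.0639), while Kng1 averaged in this way gave 1.52 and passed (adjusted p = 0.000747).

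The cell types behind these values were followed through marker lists. Of 9 measured macrophage markers, 5 rose in Gnaq/Gna11 against Gna11, and their mean level was 9.81 to 9.94 in the Gnaq/Gna11 arrays, against 7.67 to 8.43 in the Gna11 arrays. Of 20 pan-leukocyte genes 1 rose, with means of 9.08 to 9.15 in the Gnaq/Gna11 arrays, against 8.07 to 8.69 in the Gna11 arrays. Of 10 fibroblast markers 2 rose, with means of 6.31 to 6.75 in the Gnaq/Gna11 arrays, against 5.82 to 6.14 in the Gna11 arrays. Among fibroblast markers the collagens were higher, such as Col1a2 with 9.76 in Gnaq/Gna11 and 7.68 in Gna11. Pdgfra, a receptor that marks fibroblasts, averaged 4.56 in Gnaq/Gna11 and 4.92 in Gna11, close to or under the array median. Of the brighter markers outside the collagens, Dcn averaged 8.19 in Gnaq/Gna11 and 8.01 in Gna11. Thy1 averaged 9.39 in Gnaq/Gna11 and 9.61 in Gna11, and Pdgfrb 6.70 in Gnaq/Gna11 and 7.05 in Gna11. In replicates 2 and 3 of Gna12/Gna13 the macrophage mean was 10.0 and 10.2, and Kng1 was 5.32 and 5.61 there and Proz 8.05 and 8.35. Single macrophage markers differed in this. Only C1qa and Msr1 were higher in every Gnaq/Gna11 array than in every other array. Their lowest Gnaq/Gna11 values were 9.49 and 7.50, and their highest Gna12/Gna13 values 9.09 and 7.38. Marco reached 12.6 in Gna12/Gna13 and 10.6 in Gnaq/Gna11. None of the 8 hepatocyte markers passed, and their mean was 5.85 to 5.98 in the Gnaq/Gna11 arrays, against 5.89 to 6.003 in the Gna11 arrays. Single hepatocyte markers differed in both directions without passing: albumin averaged 6.32 in Gnaq/Gna11 and 7.07 in Gna11, and Serpina1b 6.26 in Gnaq/Gna11 and 4.83 in Gna11.

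Array features moved with the genotype as well. The Gapdh 3′ minus 5′ difference, a sign of RNA integrity and amplification, was 3.14 ± 0.12 in Gnaq/Gna11 and 3.70 ± 0.29 in Gna11 (SD, n = 3 each), and the groups did not overlap. The same difference for Actb overlapped, with 2.75 to 3.38 in Gnaq/Gna11 and 3.02 to 3.35 in Gna11. With the Gapdh difference as a covariate Kng1 kept a difference of 2.75 but missed the threshold (limma adjusted p = 0.0507), and Proz had 1.82 (adjusted p = 0.140). With the pan-leukocyte mean added as covariate Kng1 had 2.60 and passed (adjusted p = 0.0454), and Proz had 1.65 (adjusted p = 0.182). Eif2s3y, which lies on the Y chromosome, was low in all 3 Gnaq/Gna11 arrays (3.32 to 3.54) and in replicate 2 of each other group (3.07 to 3.56). In those 3 replicates Kng1 read 5.80 in Gna11, 5.32 in Gna12/Gna13 and 5.33 in Gna12. Proz read 8.74 in Gna11, 8.05 in Gna12/Gna13 and 8.28 in Gna12. For both genes the Gna11 value was the highest level outside the Gnaq/Gna11 arrays. With Eif2s3y as covariate both Kng1 and Proz passed in Gnaq/Gna11 against Gna11. Without Gna11 replicate 2 the differences were 2.68 for Kng1 and 1.95 for Proz, and both passed. What part macrophages, fibroblasts, RNA integrity or sex have in the 2 differences was not tested beyond these values.

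**Figure D3:**
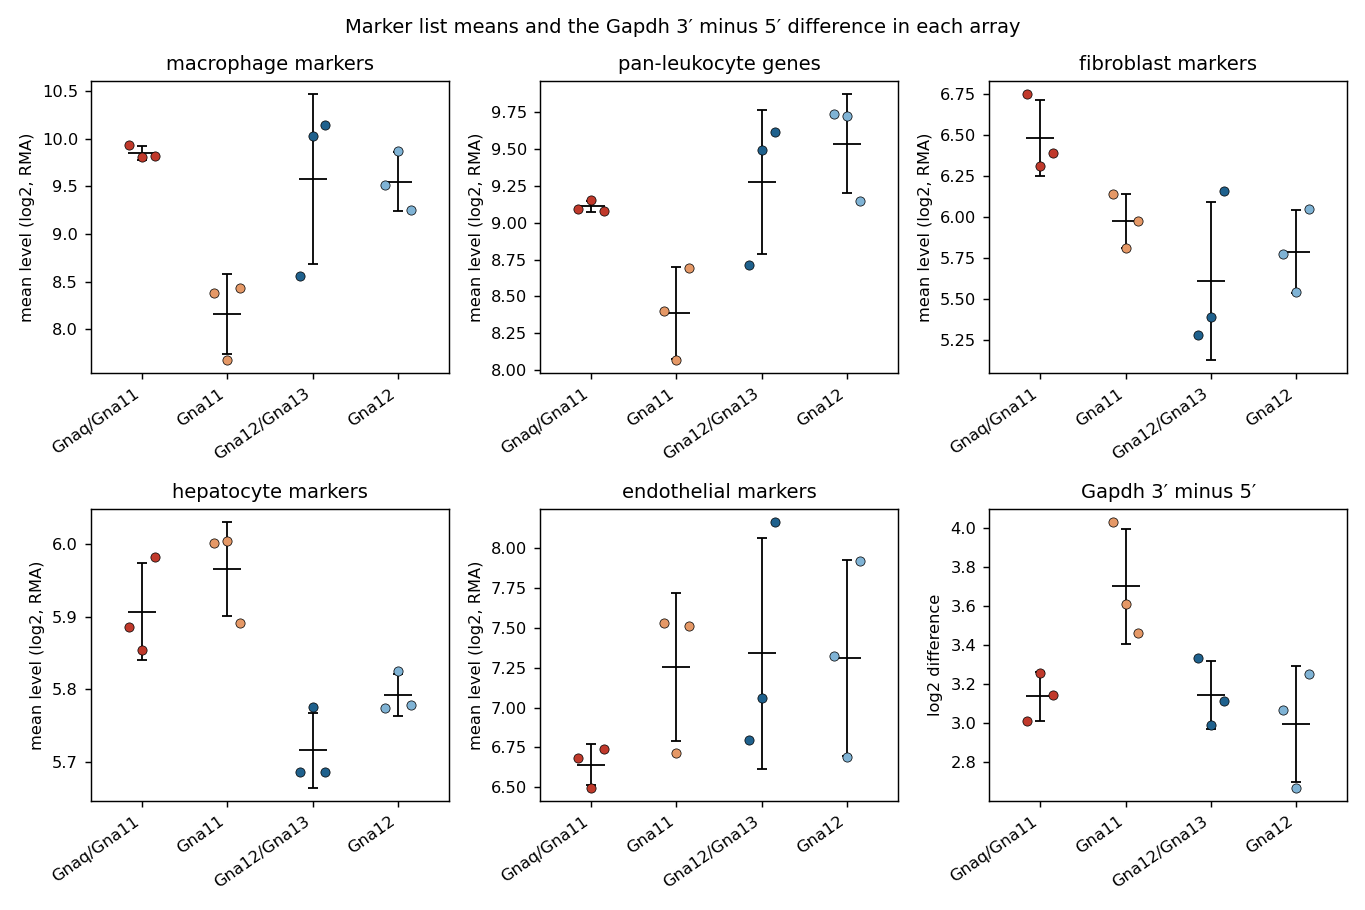
Mean level of 5 marker lists (log2, RMA) and the Gapdh 3′ minus 5′ difference (log2) in each array, with mean ± SD of 3 arrays. Macrophage and fibroblast means were higher in all Gnaq/Gna11 arrays than in all Gna11 arrays, and the Gapdh difference was lower (3.01 to 3.26 in Gnaq/Gna11, against 3.46 to 4.03 in Gna11).

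F3 encodes the trigger of coagulation and was the third gene whose arrays did not overlap. It read 5.63, 4.67 and 4.82 in the Gnaq/Gna11 arrays, against 6.84, 6.25 and 5.70 in the Gna11 arrays. It read 5.26, 5.07 and 5.17 in the Gna12/Gna13 arrays, against 6.82, 4.70 and 4.74 in the Gna12 arrays. The Gna11 arrays were thus above the Gnaq/Gna11 arrays, and replicate 1 of Gna12 was as high as the highest Gna11 array. The difference of -1.22 (SE 0.51, 95% interval -2.34 to -0.11) had an unadjusted p of 0.0343 and did not pass over all genes (limma adjusted p = 0.260). Groups without overlap were found for 19.7% of all genes in this comparison, against 3 of the 9 genes here.

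Thbd, the endothelial receptor for thrombin, varied most among arrays of 1 genotype. It read 8.31, 7.95 and 8.10 in the Gnaq/Gna11 arrays, against 8.67, 6.54 and 8.66 in the Gna11 arrays. It read 7.16, 8.57 and 10.2 in the Gna12/Gna13 arrays, against 8.64, 7.63 and 9.53 in the Gna12 arrays. Replicate 3 of Gna12/Gna13 was the highest of the 12 arrays, replicate 2 of Gna11 was the lowest, and all pairs of groups overlapped. The difference between Gnaq/Gna11 and Gna11 was 0.16 (SE 0.76, 95% interval -1.51 to 1.83, limma adjusted p = 0.944), an interval that left room for large changes in either direction. Endothelial markers were highest where Thbd was highest, with a mean of 8.16 in replicate 3 of Gna12/Gna13 and 7.92 in replicate 3 of Gna12, and lay between 6.50 and 7.53 in the other 10 arrays. None of the 10 endothelial markers passed in Gnaq/Gna11 against Gna11 (means of 6.50 to 6.74 in Gnaq/Gna11, against 6.72 to 7.53 in Gna11). Kdr, an endothelial receptor for vascular growth factor, lay between 7.69 and 8.04 in Gnaq/Gna11 and between 8.90 and 9.29 in Gna11, without overlap. Tek, another endothelial receptor, lay between 6.68 and 7.35 in Gnaq/Gna11 and between 7.65 and 8.92 in Gna11, while Cdh5, a defining marker, was under the array median in both groups and overlapped. The part of endothelial cells in Thbd was not tested. Leaving out Gna11 replicate 2 turned the Thbd difference to -0.55.

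The inhibitor of the tissue factor complex, Tfpi, read 5.16, 5.85 and 5.74 in the Gnaq/Gna11 arrays, against 5.66, 5.28 and 5.55 in the Gna11 arrays. It read 5.02, 5.15 and 6.51 in the Gna12/Gna13 arrays, against 5.12, 5.46 and 5.90 in the Gna12 arrays. These groups overlapped throughout, with replicate 3 of Gna12/Gna13 the highest. The difference between Gnaq/Gna11 and Gna11 was 0.09 (SE 0.36, 95% interval -0.71 to 0.88, limma adjusted p = 0.933). The other 3 Tfpi probe sets lay between 2.52 and 4.59 in all arrays, below the array median.

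The activators and their receptor were near or a little above the array median. Plau read 5.21, 4.99 and 4.997 in the Gnaq/Gna11 arrays, against 4.82, 5.08 and 5.08 in the Gna11 arrays. It read 5.07, 5.08 and 5.37 in the Gna12/Gna13 arrays, against 5.29, 6.24 and 4.84 in the Gna12 arrays. Only replicate 2 of Gna12 was clearly above the rest, and the difference between Gnaq/Gna11 and Gna11 was 0.07 (SE 0.28, 95% interval -0.54 to 0.69, limma adjusted p = 0.928). The dimmer Plau probe set read 3.93, 3.90 and 4.02 in the Gnaq/Gna11 arrays, against 4.13, 4.76 and 4.21 in the Gna11 arrays, all under the median. It did not overlap but did not pass either (difference -0.41, limma adjusted p = 0.455).

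Plat read 6.57, 4.79 and 5.33 in the Gnaq/Gna11 arrays, against 6.93, 5.20 and 5.57 in the Gna11 arrays. It read 5.94, 4.81 and 6.29 in the Gna12/Gna13 arrays, against 5.78, 5.32 and 6.31 in the Gna12 arrays. The spread inside each genotype was wider than any difference between genotypes. Replicate 2 read lowest in every genotype, so part of this spread went with the replicate number, which the main fit does not take into account. In that fit Gnaq/Gna11 differed from Gna11 by -0.33 (SE 0.56, 95% interval -1.56 to 0.89, limma adjusted p = 0.821). The second Plat probe set stayed between 2.84 and 3.45 except in replicate 1 of Gna12, where it read 4.73.

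Plaur read 5.70, 6.07 and 5.60 in the Gnaq/Gna11 arrays, against 5.95, 6.19 and 6.36 in the Gna11 arrays. It read 6.14, 6.65 and 5.78 in the Gna12/Gna13 arrays, against 6.73, 6.91 and 6.14 in the Gna12 arrays. Both double knockouts had a lower mean than their single knockouts, but the ranges overlapped in both pairs. The difference between Gnaq/Gna11 and Gna11 was -0.37 (SE 0.26, 95% interval -0.95 to 0.20, limma adjusted p = 0.529). Serpinb2 lay between 2.91 and 3.13 in the Gnaq/Gna11 arrays and 2.99 and 3.14 in the Gna11 arrays, and between 2.83 and 3.02 in the Gna12/Gna13 arrays and 2.85 and 3.06 in the Gna12 arrays. It was the lowest of the 9 genes and far below the array median everywhere, so the array gave little room to see it fall (difference -0.07, SE 0.09, limma adjusted p = 0.732).

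**Figure D4:**
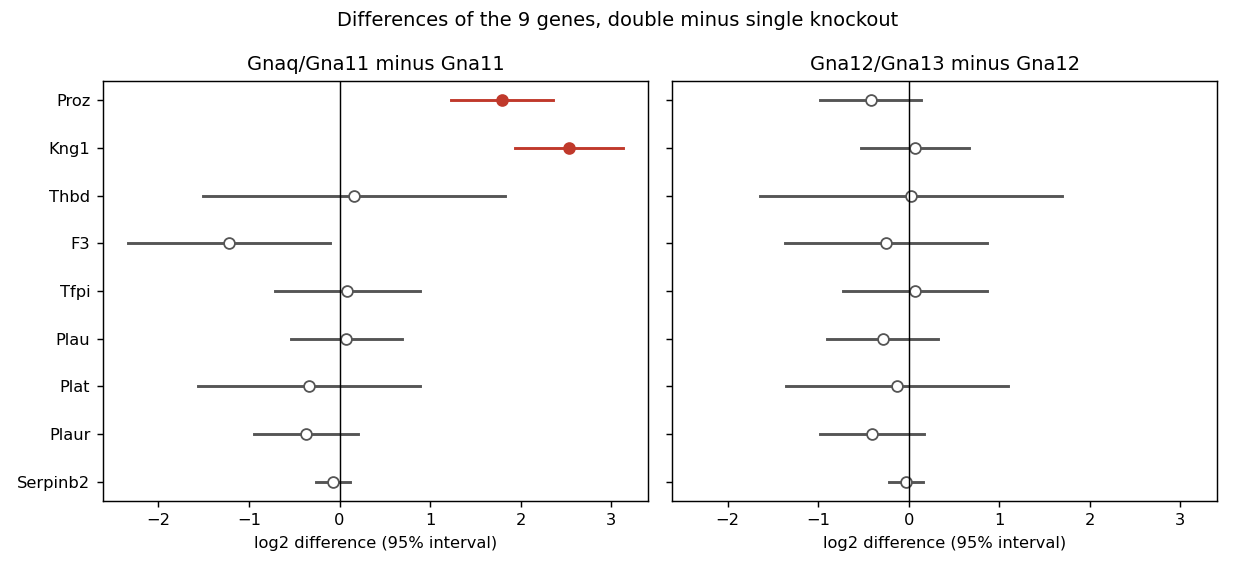
Log2 difference of each of the 9 genes with its 95% interval, Gnaq/Gna11 minus Gna11 on the left and Gna12/Gna13 minus Gna12 on the right. Filled red points passed over all genes (adjusted p below 0.05): Kng1 (2.54) and Proz (1.79) on the left, and none on the right.

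The second pair of genotypes asks what the added loss of Gna13 did in cells lacking Gna12. None of the 9 genes passed, and 0 of them had an unadjusted p below 0.05 or groups without overlap. Over all genes 0% passed in limma, 4.51% had an unadjusted p below 0.05 and 11.3% did not overlap. Kng1 differed by 0.07 (SE 0.27, 95% interval -0.53 to 0.66) and Proz by -0.42 (SE 0.25, 95% interval -0.98 to 0.14). Both intervals end below the lower bound of the same gene's interval in the Gnaq/Gna11 pair.

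Whether the pairs differed was tested as the difference of the differences. It was 2.47 for Kng1 (SE 0.38, unadjusted p = 4.46e-05) and 2.21 for Proz (SE 0.36, unadjusted p = 6.84e-05). Neither passed over all genes, with a limma adjusted p of 0.0564 for Kng1 and 0.0567 for Proz, in a test where 0.0715% of all genes passed and 10.8% had an unadjusted p below 0.05. These 2 were the only members of the 9 with an unadjusted p below 0.05 in this test. The values sat near the threshold: both passed when genes under the array median were left out or arrays were weighted by quality. Over 23 alternatives Kng1 passed under 6 (adjusted p up to 0.333) and Proz under 3 (adjusted p up to 0.446).

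Between the single knockouts, Gna12 against Gna11, none of the 9 genes passed and 0 had an unadjusted p below 0.05 in limma, against 2.82% and 20.9% of all genes. Kng1 differed by -0.19 (95% interval -0.79 to 0.41) and Proz by -0.08 (95% interval -0.64 to 0.48). Between the double knockouts, Gnaq/Gna11 against Gna12/Gna13, Kng1 was higher by 2.66 (SE 0.27, limma adjusted p = 0.000665) and Proz by 2.30 (SE 0.25, adjusted p = 0.000982), in a comparison where 6.1% of all genes passed. No other member passed there. Averaged over the 6 arrays lacking Gna11 against the 6 lacking Gna12, Kng1 was higher by 1.43 (adjusted p = 0.00196) and Proz by 1.19 (adjusted p = 0.00308), against 12.3% of all genes that passed. The Gna11 arrays overlapped the 6 Gna12-lacking arrays for both genes, and only the Gnaq/Gna11 arrays stood above them. These comparisons share arrays with each other and are not independent.

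The other genes of the pathway were counted from lists of 51 genes, 46 of them measured. In Gnaq/Gna11 against Gna11, 3 were higher and 0 lower, against 1.84% of all genes that passed. They were 2 of 17 other coagulation factors, 1 of 12 other anticoagulants and inhibitors, 0 of 14 other genes of plasminogen activation and 0 of 3 thrombin and protease receptors. The median difference of the 46 genes was 0.03, against -0.03 for all genes.

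Fga, the fibrinogen alpha chain, read 6.47, 8.41 and 5.98 in the Gnaq/Gna11 arrays, against 3.68, 3.52 and 3.62 in the Gna11 arrays. Fgg, the gamma chain, read 7.56, 8.70 and 7.79 in the Gnaq/Gna11 arrays, against 4.80, 4.92 and 4.87 in the Gna11 arrays. Replicate 2 of Gnaq/Gna11 was the highest for both chains, as it was for Kng1. Fga was 10.2-fold higher (log2 difference 3.34, SE 0.49, limma adjusted p = 0.00977) and Fgg 8.92-fold higher (3.16, SE 0.41, adjusted p = 0.00685). The Gna11 levels of both chains lay under the array median, so the size of these folds rests on dim readings. The beta chain Fgb, which lies beside them in the genome and is needed for the same protein, averaged 5.10 in Gnaq/Gna11 and 5.08 in Gna11 (adjusted p = 0.961). Each chain had 1 probe set, at which the mean of Fgb was close to the array median in all groups.

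Serpina10, the inhibitor that works with protein Z, read 6.75, 7.55 and 7.15 in the Gnaq/Gna11 arrays, against 4.84, 4.99 and 4.90 in the Gna11 arrays. It read 5.90, 7.51 and 5.64 in the Gna12/Gna13 arrays, against 5.57, 5.43 and 6.11 in the Gna12 arrays. Unlike Proz, Serpina10 in replicate 2 of Gna12/Gna13 was inside the Gnaq/Gna11 range. It was 4.73-fold higher in Gnaq/Gna11 than in Gna11 (log2 difference 2.24, SE 0.41, limma adjusted p = 0.0253), and its call was lost when any 1 of 4 arrays was left out, Gna11 replicates 1 and 2 and Gnaq/Gna11 replicates 2 and 3 (adjusted p 0.0630 to 0.0957). F7 and F10 lie directly before Proz in RefSeq's gene order. F7 read 10.63, 10.64 and 10.81 in the Gnaq/Gna11 arrays, against 8.42, 9.83 and 9.93 in the Gna11 arrays, so its groups did not overlap, but it did not pass (limma adjusted p = 0.148). F10 averaged 10.3 in Gnaq/Gna11 and 10.4 in Gna11 (adjusted p = 0.992).

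**Figure D5:**
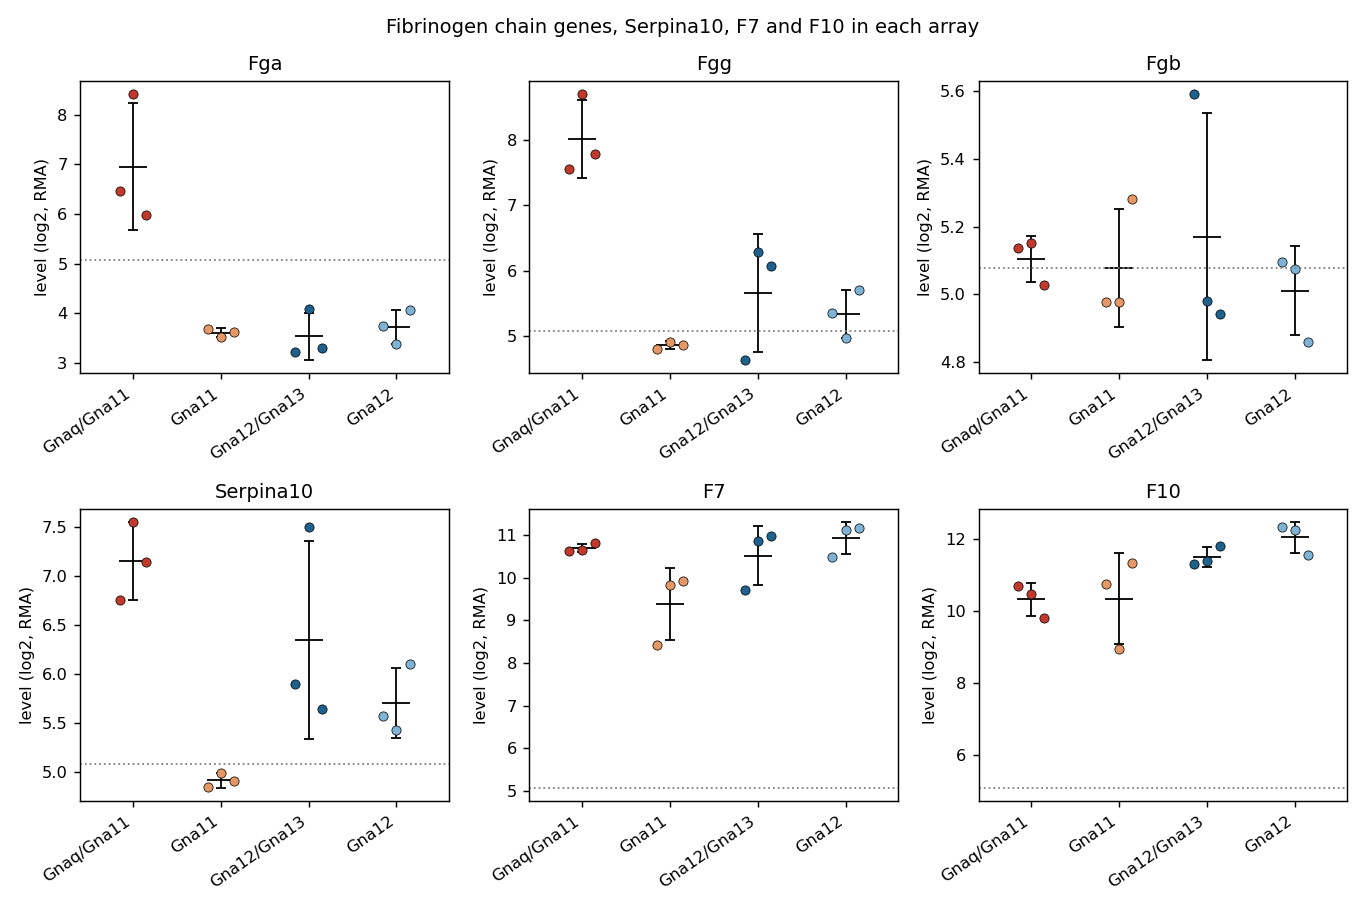
Level of the 3 fibrinogen chain genes, Serpina10, F7 and F10 in each array (log2, RMA), with mean ± SD of 3 arrays and the median of all probe sets as a dotted line. Fga (5.98 to 8.41) and Fgg (7.56 to 8.70) are above all other arrays in Gnaq/Gna11, Fgb is near the dotted line in every group, and F7 and F10 are high in all.

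The genes of plasminogen activation with the smallest adjusted p in this comparison were the protease St14, with means of 7.49 in Gnaq/Gna11 and 6.61 in Gna11, the annexin partner S100a10, with 11.8 in Gnaq/Gna11 and 11.5 in Gna11, Serpinb6a, and the plasminogen receptor Plgrkt, and none of the 4 passed. Plasminogen itself, Plg, averaged 4.41 in Gnaq/Gna11 and 4.53 in Gna11, under the array median. The clot-crosslinking factor F13a1, which macrophages also make, read 8.94, 8.17 and 8.02 in Gnaq/Gna11, against 7.35, 4.80 and 7.00 in Gna11, where the low value is from replicate 2, the array that stood apart, and it did not pass (limma adjusted p = 0.1504). Of the inhibitors that did not pass, Serping1 and Serpind1 came closest after Serpina10. Of the receptors, F2r, F2rl2 and F2rl3 averaged between 3.09 and 3.93 in Gnaq/Gna11 and between 3.21 and 4.03 in Gna11, so transcripts of these thrombin receptors were near the low end of the array's range.

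No pathway gene passed in Gna12/Gna13 against Gna12 or in the difference of the differences. In Gna12 against Gna11 the clearance receptor Lrp1 was higher by 1.38 (limma adjusted p = 0.0467) and F9 by 1.44 (adjusted p = 0.0436). These calls held under 6 of 18 alternatives for Lrp1 (lowest difference 0.39) and 6 of 17 for F9 (lowest 0.33). F9 was under the array median in every array, with means of 4.41 in Gna12 and 2.96 in Gna11, so its differences rest on dim readings. In Gnaq/Gna11 against Gna12/Gna13, Fga was higher by 3.42 (adjusted p = 0.00370), Fgg by 2.35 (adjusted p = 0.00875) and the vitamin K-dependent carboxylase Ggcx by 1.70 (adjusted p = 0.0430), while Anxa2, a cell-surface anchor for plasminogen and Plat, fell by 0.30 (adjusted p = 0.0361). Of 18 alternatives Ggcx passed under 6 (adjusted p up to 0.135) and Anxa2 under 8 (adjusted p up to 0.578). In the arrays lacking Gna11 against those lacking Gna12, 4 of 46 genes were higher (Fga, Ggcx, F2r and Plg) and 5 lower (Anxa2, Lrp1, F10, F9 and Procr), which is 9 of 46 beside 12.3% of all genes. F10, the gene of the factor that protein Z and Serpina10 inhibit in its activated form, fell by 1.44 there (limma adjusted p = 0.0251). It passed under 16 of 23 alternatives (-1.69 to -0.53). Fga, Lrp1 and Anxa2 each passed under 20 alternatives, Ggcx under 13, F2r under 12, Plg under 9, Procr under 7 and F9 under 6, of 22 or 23 each.

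Among all genes, those whose levels followed each member most closely over the 12 arrays were named by Pearson's r, as a description of arrays that fall into 4 genotypes. For Kng1 they were Itga7 (0.964), Slc26a4 (0.958) and Proz (0.949). For Proz they were Retnla (0.950), Kng1 (0.949) and the fibroblast marker Col1a1 (0.942). Kng1 and Proz were thus each in the other's nearest 3 among 18193 genes, and Col1a1 averaged 8.14 in Gnaq/Gna11 and 6.57 in Gna11. For Thbd they were Rhoj (0.965), Sox17 (0.942) and Plpp1 (0.929), of which the first 2 are known from endothelial cells. For F3 they were Plscr4 (0.938), Nlgn3 (0.874) and Syde2 (0.873). For Plaur they were Gna12 (0.909), Cdk6 (0.889) and Heatr4 (0.886), at a Gna12 probe set that was not lower in the arrays lacking that gene. Plau was followed by Pram1 (0.916), Slfn4 (0.911) and Hamp2 (0.902), Plat by 4930520O04Rik, Ppp2ca and Lrp12 (0.844 to 0.857), and Tfpi by Iigp1, Sall2 and Flicr (0.841 to 0.852).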

How the data were processed

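Total RNA (10 ng) was amplified and hybridised to 12 mouse arrays, per the labels' protocols. The deposited log2 values were made by the authors with RMA, per the submitters' processing notes. No label or note states the base of the logarithm, which was read as 2 from the range of the values (2.13 to 14.1). Of 45101 probe sets 64 were controls and 34945 had 1 gene in the platform annotation, updated by gene number. A gene was represented by its brightest probe set on average (18193 genes). Differences were tested with limma 3.58.1 in R 4.3.3, with 1 mean per genotype over all 12 arrays, an intensity trend and Benjamini-Hochberg adjustment over all genes. The fit was tested on simulated data. The genes described, the pathway and marker lists and the tests were chosen with earlier results of these data known. Outside the 9 genes, the text names up to 4 genes per list with the smallest adjusted p, genes beside those that rose (Fgb, F7, F10, Ahsg and Hrg) and Plg, both chosen after their values were seen, all that passed in the comparison of arrays lacking Gna11 and Gna12, and the 3 genes closest by Pearson's r. Promoters are from the RefSeq table used here, in which 5 of the 9 genes were matched. No 2 arrays held identical values. Alternatives covered normalisation, dim genes, probe set choice, the trend, array weights, covariates, a replicate block and each array left out.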

Additional observations from a re-analysis of the deposited data

How the results depend on the processing

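In Gnaq/Gna11 against Gna11 the calls of Kng1 and Proz became 1 of 9 (Kng1) with probe sets averaged or with the pan-leukocyte mean as covariate, and 0 with the Gapdh difference as covariate, and were 2 whichever array was left out. Kng1 passed under 17 of 18 alternatives (1.52 to 2.85) and Proz under 15 (1.59 to 1.95), and both passed under all 18 against Gna12/Gna13. Of the pathway genes, Fga passed under 14 of 17, Fgg under 16 of 18 and Serpina10 under 10 of 18. In the difference of the differences, 2 members passed with dim genes left out and 2 with array weights, 1 (Kng1) with probe sets averaged and 1 (Kng1) without the intensity trend, and 0 to 1 with an array left out: Kng1 without Gna11 replicate 2 or Gnaq/Gna11 replicate 1, Proz without Gna12/Gna13 replicate 3. In Gna11-lacking against Gna12-lacking arrays 0 passed with the pan-leukocyte covariate and 0 with the Gapdh covariate. The causes of these changes were not tested. The 335 genes called over all in Gnaq/Gna11 against Gna11 became 22 with the pan-leukocyte covariate, 3 with the Gapdh covariate, 174 with array weights, 139 with only the arrays compared, and 102 to 375 with an array left out. Over all alternatives the calls among all genes ran from 0 to 40 for the difference of the differences (13 as reported), 0 to 736 for Gna12 against Gna11 (513), 369 to 1640 for Gnaq/Gna11 against Gna12/Gna13 (1109) and 67 to 2590 for the arrays lacking Gna11 against those lacking Gna12 (2244).

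Members that had not passed changed sign between Gnaq/Gna11 and Gna11 as follows. Plau had -0.17 with probe sets averaged, -0.29 with the pan-leukocyte covariate, -0.63 with the Gapdh covariate and -0.17 with Eif2s3y as covariate; Thbd had -0.085 with array weights and -1.02 with the pan-leukocyte covariate; Tfpi had -0.23 with the pan-leukocyte covariate; Plat had 0.57 with the Gapdh and 0.35 with the Eif2s3y covariate. With an array left out, Plau ranged over -0.0118 to 0.117, Plat -0.84 to 0.18, Tfpi -0.048 to 0.299 and Thbd -0.55 to 0.51. Kng1 ranged over -0.0394 to 0.14 in Gna12/Gna13 against Gna12 and was 0.078 with the Gapdh covariate in Gna12 against Gna11, where Proz was 0.15 with probe sets averaged and -0.253 to 0.0677 with an array left out. Same-numbered arrays did not deviate together in every pair, and the labels do not say whether the numbers pair samples. The main fit therefore left them unpaired, but the correlations do not decide whether the samples were paired. Over all pairs of groups the correlations of same-numbered arrays ran from -0.0375 to 0.27. Most of them were positive, and the highest was between replicates 2 of Gna12 and Gna12/Gna13. Those of arrays with different numbers ran from -0.28 to 0.15. Whether same-numbered arrays share a batch was not tested. With the replicate number as a block, 2 of the 9 genes passed in Gnaq/Gna11 against Gna11, 2 against Gna12/Gna13, 2 between the arrays lacking Gna11 and those lacking Gna12, and 0 in the other comparisons, as without it. Of the pathway genes named, F9, Ggcx and Procr lost calls under the block.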
